A study of Mus musculus with 3 samples.

Results

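In mouse bone marrow-derived macrophages (BMDMs), 43915 of the 94819 Foxp3 CUT&RUN peaks of replicate 2 overlapped no peak of replicate 1, which is 46.3% (46.0 to 46.6). These replicate 2 only sites were chosen by position: a peak of replicate 2 on chromosomes 1 to 19 or X that shared not even 1 bp with a replicate 1 peak. The other 50904 peaks of replicate 2 did overlap one and are called shared peaks below. The choice used the peak calls of both libraries, so length, strength and the distance to replicate 1 are given as descriptions, with no test. Peaks of 1 library are not replicates of a condition, and no p-value is given over them. Each bracketed interval after a share is a 95% Clopper-Pearson (exact binomial) one, which takes in no error but that of counting.

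CUT&RUN cuts and releases the DNA around an antibody's target, and the released fragments are sequenced. The 2 libraries compared were both made with the Foxp3 antibody FJK-16s (Invitrogen), from BMDMs whose genotype and animals the labels do not give, grown in M-CSF-conditioned medium and fixed for 2 min in 0.1% formaldehyde. A library made with an isotype IgG completes the series of 3 samples and was not analysed here. Brain-derived damage-associated molecules are named as a stimulus in the title of the series, and no label ties them to a library. Whether each replicate was its own culture is likewise not stated, so the difference between the libraries may be technical. Occupancy does not show expression, and the macrophage label could not be checked against marker transcripts.

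Foxp3, a transcription factor of the forkhead family, is known above all as the lineage factor of regulatory T cells, where it binds promoters and enhancers, often beside other factors. Rubcn encodes Rubicon, a regulator of LC3-associated phagocytosis, by which macrophages process engulfed cargo. A peak caller lists a site when its fragments exceed a local background, so each library has its own list and its own threshold.

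Promoters of genes with no called replicate 1 peak at either end are shown first, since there the libraries differed at the whole gene end and not only at 1 stretch of it. In all, 206 genes had a replicate 2 only summit within 1000 bp of an end and no replicate 1 peak within 1000 bp of either end. The summit fell inside a promoter window of RefSeq (build GRCm38.p6, 250 bases before to 50 after a transcription start) for 25 windows of these genes. The 5 with the highest fold enrichment are printed 5′ to 3′ in the direction of the gene, followed by Nras, which was chosen after its values were seen because it holds a forkhead word. Capitals mark the bases under the replicate 2 peak.
Steap4 (chr5:7960222-7960521, plus strand): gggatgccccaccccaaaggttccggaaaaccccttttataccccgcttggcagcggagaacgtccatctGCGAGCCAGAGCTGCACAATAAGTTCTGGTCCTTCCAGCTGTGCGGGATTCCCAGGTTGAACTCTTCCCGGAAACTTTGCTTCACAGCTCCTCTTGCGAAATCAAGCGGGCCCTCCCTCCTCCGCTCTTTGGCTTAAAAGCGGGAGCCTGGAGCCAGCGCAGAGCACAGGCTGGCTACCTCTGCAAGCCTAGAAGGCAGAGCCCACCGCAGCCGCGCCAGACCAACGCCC
Ms4a13 (chr19:11196688-11196987, minus strand): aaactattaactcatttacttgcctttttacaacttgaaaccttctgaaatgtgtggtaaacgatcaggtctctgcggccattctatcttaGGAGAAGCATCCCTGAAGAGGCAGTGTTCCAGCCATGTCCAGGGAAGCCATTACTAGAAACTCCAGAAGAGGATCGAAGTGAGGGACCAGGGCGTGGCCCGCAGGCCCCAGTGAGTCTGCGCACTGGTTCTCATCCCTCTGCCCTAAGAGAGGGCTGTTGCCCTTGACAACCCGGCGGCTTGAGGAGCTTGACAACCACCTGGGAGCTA
Taf9b (chrX:106221109-106221408, minus strand): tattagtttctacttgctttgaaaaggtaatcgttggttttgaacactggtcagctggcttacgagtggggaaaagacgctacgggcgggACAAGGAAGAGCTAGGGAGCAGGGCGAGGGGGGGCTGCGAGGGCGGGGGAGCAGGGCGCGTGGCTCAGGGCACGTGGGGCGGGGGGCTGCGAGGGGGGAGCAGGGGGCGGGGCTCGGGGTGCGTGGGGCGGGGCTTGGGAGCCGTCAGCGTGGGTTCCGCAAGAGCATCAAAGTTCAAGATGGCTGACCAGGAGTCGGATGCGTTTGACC
Hnf4a (chr2:163506607-163506906, plus strand): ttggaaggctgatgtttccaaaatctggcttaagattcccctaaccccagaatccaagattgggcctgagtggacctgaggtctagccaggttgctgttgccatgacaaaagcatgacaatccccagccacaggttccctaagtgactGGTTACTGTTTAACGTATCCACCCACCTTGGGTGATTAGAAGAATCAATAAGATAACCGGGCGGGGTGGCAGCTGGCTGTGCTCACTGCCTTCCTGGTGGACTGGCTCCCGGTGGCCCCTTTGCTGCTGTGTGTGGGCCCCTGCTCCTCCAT
Osgepl1 (chr1:53313374-53313673, plus strand): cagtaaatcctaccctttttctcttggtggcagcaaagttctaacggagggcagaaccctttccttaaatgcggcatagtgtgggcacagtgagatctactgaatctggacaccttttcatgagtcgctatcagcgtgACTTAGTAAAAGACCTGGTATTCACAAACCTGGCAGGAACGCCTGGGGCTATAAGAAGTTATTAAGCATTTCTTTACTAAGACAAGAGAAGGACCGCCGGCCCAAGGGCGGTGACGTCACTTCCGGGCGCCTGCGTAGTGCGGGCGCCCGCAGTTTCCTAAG
Nras (chr3:103058035-103058334, plus strand): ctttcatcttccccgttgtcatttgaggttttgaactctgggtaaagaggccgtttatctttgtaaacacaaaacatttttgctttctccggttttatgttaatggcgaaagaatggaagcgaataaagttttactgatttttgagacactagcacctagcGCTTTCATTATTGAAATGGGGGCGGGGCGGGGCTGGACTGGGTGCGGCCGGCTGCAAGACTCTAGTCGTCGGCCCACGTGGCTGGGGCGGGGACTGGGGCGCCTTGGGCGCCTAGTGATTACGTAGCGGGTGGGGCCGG
The peaks covered 230 of the 300 bases at Steap4, 209 at Ms4a13, 210 at Taf9b, 152 at Hnf4a, 162 at Osgepl1 and 139 at Nras. Their summits lay 41 bp (Steap4), 56 bp (Ms4a13), 40 bp (Taf9b) and 44 bp (Osgepl1) upstream of the start, whereas the Hnf4a and Nras summits lay 15 and 1 bp downstream. The windows differed in base composition, since GC content was 64.0% at Taf9b, 60.3% at Steap4, 54.0% at Hnf4a, 52.3% at both Ms4a13 and Nras and 51% at Osgepl1. CpG dinucleotides numbered 22 at Taf9b, 19 at Nras, 16 at Steap4, 15 at Osgepl1, 8 at Ms4a13 and 4 at Hnf4a. The SP/KLF word GGGCGGGG was found at Taf9b, Hnf4a and Nras, the E-box CACGTG at Taf9b and Nras, and CCAAT at Hnf4a. Osgepl1 held a CRE word (TGACGTCA) next to an ETS word (CCGGAAG on the opposite strand), both in capitals. The forkhead word TGTTTAC, searched on both strands, was absent from the first 5 windows and occurred 1 time at Nras, outside the bases under the peak. A word match describes the letters and not a binding site, and its absence says nothing of the factor.

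Facts of the whole series set the scale. Per the file headers, replicate 2 held 34898401 fragments and replicate 1 held 33294105, with fragment sizes of 180 and 130 bp. Replicate 1 nevertheless had 555534 peaks on these chromosomes, of which 502942 (90.5%) overlapped no replicate 2 peak. The replicate 2 only sites covered 10.5 Mb, the shared peaks 19.7 Mb and the replicate 1 list 119 Mb. No called peak had a pileup under 13 fragments in replicate 2 or under 10 in replicate 1.

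The replicate 2 only sites were mostly short and weak. Their median length was 213 bp (quartiles 194 and 250 bp, longest 1009 bp), against 296 bp (quartiles 217 and 472, longest 3794) for shared peaks. The median pileup, the number of fragments over the summit, was 19 (quartiles 16 and 22) at replicate 2 only sites and 25 (20 and 32) at shared peaks. The authors' fold enrichment, the pileup against a background term from the same library, had a median of 3.73 (3.34 and 4.32) at replicate 2 only sites, against 4.34 (3.71 and 5.43) at shared peaks. The median −log10 q was 4.84 (3.61 and 6.62) at replicate 2 only sites and 7.95 (5.34 and 12.3) at shared peaks. The ranges between the quartiles overlapped on all 4 measures. A longer peak also has more bases with which to meet a replicate 1 peak, so length is tied to the rule.

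**Figure D1:**
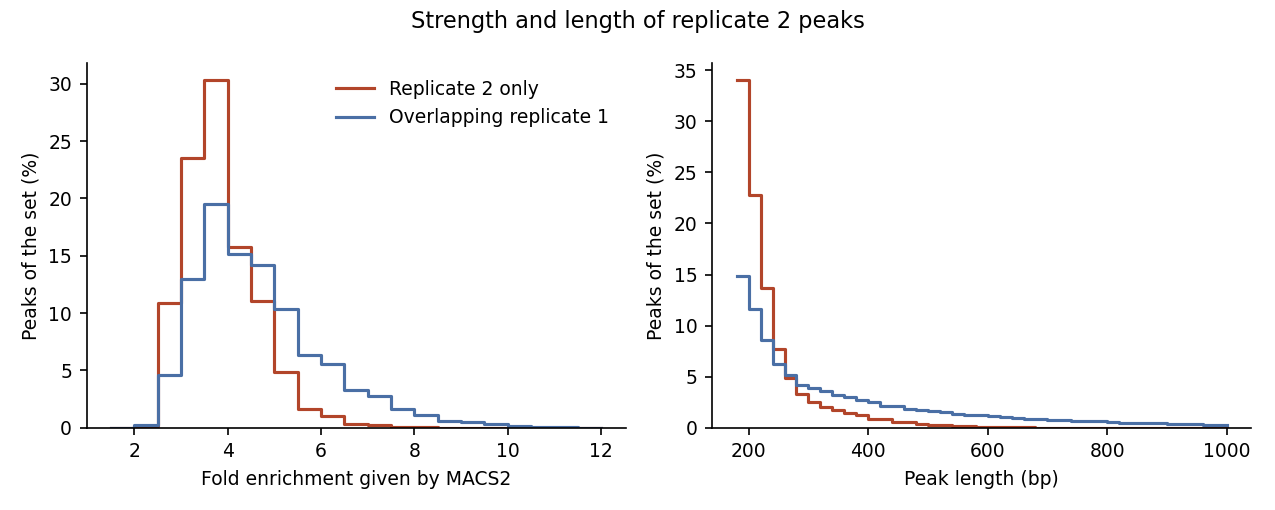
Histograms of fold enrichment (left, unitless) and peak length (right, bp) for replicate 2 only sites (red) and shared replicate 2 peaks (blue), as a percentage of each set. Replicate 2 only sites crowd near a fold of 3.73 and near 200 bp, while the shared peaks have long right tails.

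The upper tails differed more than the medians. Of replicate 2 only sites, 616 (1.4%) were at least 500 bp long, against 11447 (22.5%) of shared peaks. At the short end, 35.3% of replicate 2 only sites and 15.5% of shared peaks were no longer than 200 bp, close to the 180 bp fragment size. A pileup of at least 50 was reached by 66 replicate 2 only sites (0.150%) and by 3.75% of shared peaks. A fold of at least 5 was reached by 3644 (8.30%) against 33.2%, a fold of at least 8 by 61 against 1597 peaks, and a fold of at least 10 by 12 against 286 peaks. The background term was worked out from the deposited pileup and fold, and its lowest value in replicate 2 was 5.09. It stood at that value for 67.9% of replicate 2 only sites and 45.1% of shared peaks.

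The share of replicate 2 peaks that replicate 1 lacked fell along the fold enrichment up to a fold of about 8. It was 66.1% below a fold of 3, 58.8% at 3 to 4, 44.1% at 4 to 5, 25.1% at 5 to 6 and 9.61% at 6 to 8. Between folds of 8 and 10 it was 3.6% (49 of 1360 peaks), and above 10 it was 4.03% (12 of 298). Along length it ran from 66.3% at 180 to 200 bp through 44.6% at 250 to 300 bp to 2.22% at 600 bp or more (179 peaks). Strong replicate 2 only sites were therefore few, and the 10 of highest fold are described below.

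**Figure D2:**
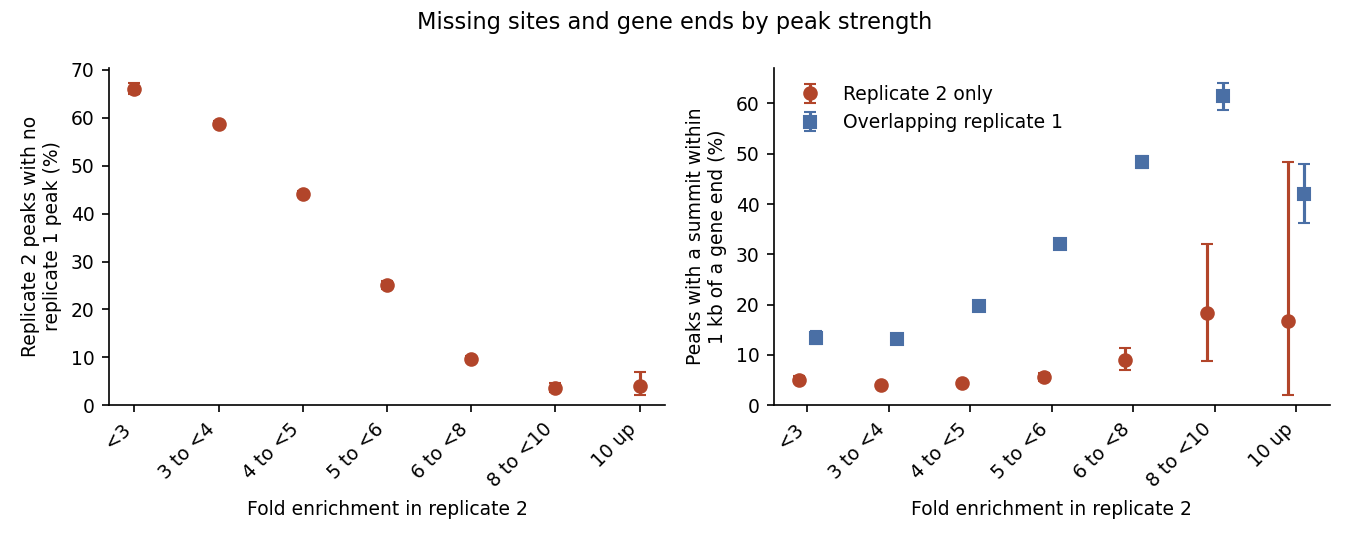
Left, share of replicate 2 peaks with no replicate 1 peak (%) by fold enrichment; right, share of peaks with a summit within 1 kb of a protein-coding gene end (%), for replicate 2 only sites (red circles) and shared peaks (blue squares), bars being 95% exact binomial intervals. The missing share drops from 66.1% below a fold of 3 to 4.03% above 10, and below a fold of 10 the red shares lie under the blue ones in every bin.

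Most replicate 2 only sites had a replicate 1 peak close by. The median distance to the nearest one was 968 bp (quartiles 363 and 2270 bp), and 50.9% of sites had one within 1 kb and 90.2% within 5 kb. The nearest replicate 1 peak was within 100 bp for 8.34% of sites and within 10 bp for 435 sites (0.991%). At the other extreme, the top 1% of distances began at 15302 bp and the longest was 76985 bp. The median distance hardly varied with strength, at 946 bp for the 780 sites of fold 6 or more and 977 bp for the 28459 sites below a fold of 4. The tails differed more. Of the sites of fold 6 or more, 85.5% had a replicate 1 peak within 5 kb and 0.256% within 10 bp, against 90.2% and 0.991% of all sites. Sites at gene ends lay closer to replicate 1, at a median of 533 bp against 999 bp for sites elsewhere. The replicate 1 list held 555534 peaks, so many positions of the genome lie near one. Distances from other positions were not measured, and closeness cannot be called a trait of these sites.

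**Figure D3:**
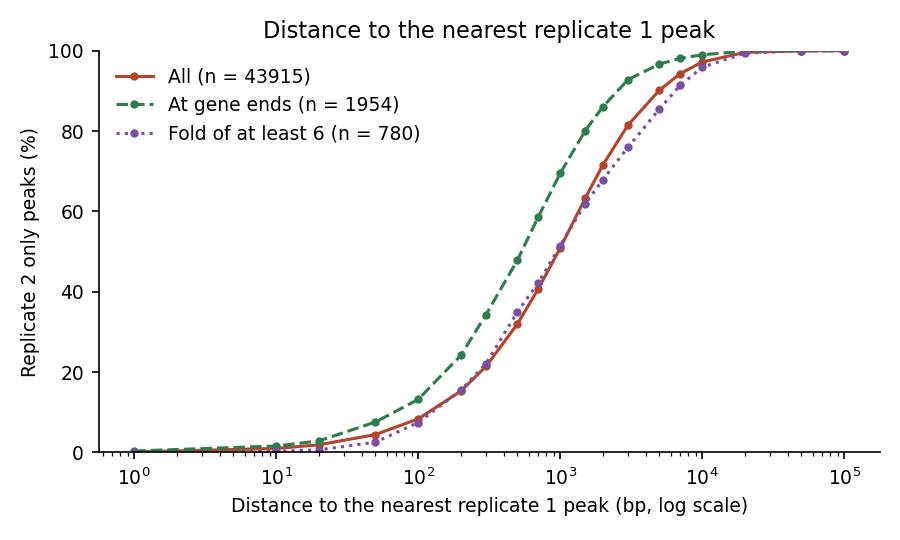
Cumulative share of replicate 2 only sites (%) by distance to the nearest replicate 1 peak (bp, log scale), for all 43915 sites (red), the 1954 at gene ends (green) and the 780 with a fold of at least 6 (purple). The curves for all sites and for strong sites reach 50.9% and 51.5% at 1 kb, where gene-end sites reach 69.5%. At 5 kb all sites reach 90.2% and strong sites 85.5%.

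At the edge of the rule, sites just inside it and peaks just outside it were alike. The 435 sites with a gap of 1 to 10 bp had a median length of 220 bp, pileup of 20 and fold of 3.70. The 487 peaks that shared only 1 to 10 bp with replicate 1 had medians of 220 bp, 20 fragments and 3.73. Their shares at gene ends were 7.13% and 8.42%.

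Replicate 2 only sites lay in the same broad regions as the other peaks. They made up 43.3% (chromosome 11) to 49.2% (chromosome 13) of replicate 2 peaks on the 20 chromosomes, with a median fold of 3.73 on each. In 2581 bins of 1 Mb the median was 15 sites, and the fullest bin, at 147 Mb on chromosome 4, held 60 beside 88 shared peaks. Across bins their number ranked with that of shared peaks (Spearman rho 0.81) and of replicate 1 only peaks (rho 0.89). These are descriptions, since bins share library, gene density and mappability. The nearest other replicate 2 peak was 7694 bp away at the median, against 6695 bp for shared peaks.

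Relative to genes, the replicate 2 only sites had a small share at the gene ends, where shared peaks gathered. Of all replicate 2 peaks, 15.1% had a summit within 1 kb of an end of a protein-coding gene. The share was 4.45% (4.26 to 4.65; 1954 sites) for replicate 2 only sites and 24.4% (12409 peaks) for shared peaks, and it was 3.97% for the replicate 1 only peaks. Another 44.1% of replicate 2 only sites lay inside a gene away from its ends and 51.5% between genes, against 38.0% and 37.6% of shared peaks. The median distance to a gene end was 28680 bp for replicate 2 only sites, 11864 bp for shared peaks and 29716 bp for replicate 1 only peaks. On this measure the sites of either library alone were close to each other and the shared peaks stood apart.

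The difference held at matched strength below a fold of 10 and, taken separately, at matched length. Strength and length were not matched together. At a fold of 3 to 4, 4.0% of replicate 2 only sites and 13.2% of shared peaks lay at gene ends, and at a fold of 6 to 8 the shares were 9.04% and 48.3%. Between folds of 8 and 10 they were 18.4% and 61.4%, the replicate 2 only value resting on 49 sites. Above a fold of 10 they were 16.7% of 12 sites and 42.0% of shared peaks, with intervals that overlapped. Among peaks of 180 to 200 bp, 3.70% of replicate 2 only sites and 9.18% of shared peaks were at gene ends, and at 600 bp or more the shares were 12.3% and 54.4%. Shared peaks at gene ends were long and strong, with a median of 474 bp and a fold of 5.26. Replicate 2 only sites at gene ends had a median of 219 bp and the same median fold of 3.73 as those elsewhere. Their median pileup was higher, at 22 against 19 elsewhere, as was their median −log10 q, at 5.67 against 4.74.

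Resolved by strand, the difference was large at transcription starts and small at the 3′ ends of genes. Starts were available for 17274 genes on chromosomes 1 to 17, 19 and X. Within 1 kb of a start lay 2.34% (993 of 42448) of replicate 2 only sites, 21.0% of shared peaks and 1.86% of replicate 1 only peaks. Within 1 kb of a 3′ end and of no start the shares were 1.74%, 2.07% and 1.72% in the same order. Over the first 200 bp downstream of a start, replicate 2 only summits reached 0.238% per 100 bp, against 3.62% for shared peaks. At 2 to 5 kb upstream the values were 0.0591% and 0.0481%. A small rise at starts was thus present in replicate 2 only sites too, and 58.3% of those within 1 kb were downstream of the start, against 72.4% of shared peaks.

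**Figure D4:**
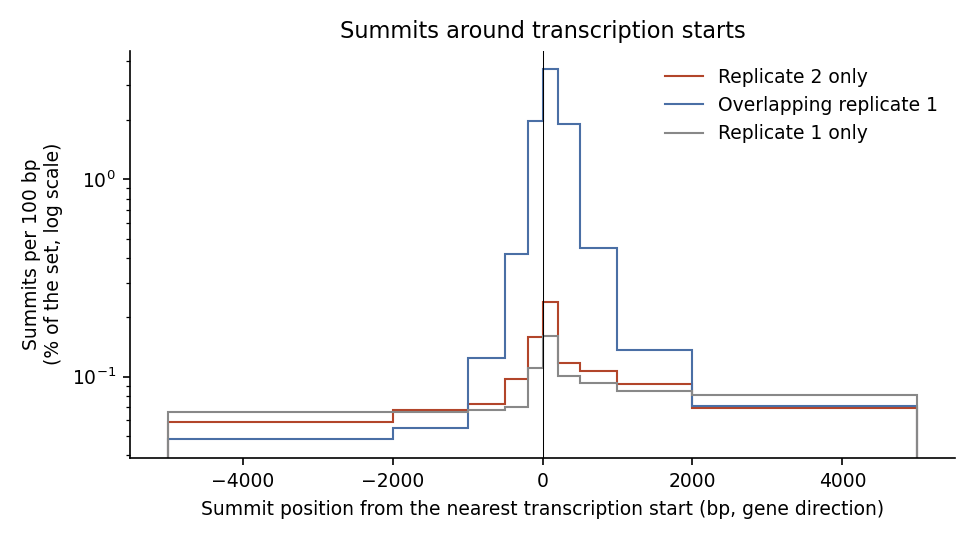
Summits per 100 bp (% of each set, log scale) by position from the nearest transcription start (bp, gene direction; positive is downstream), for replicate 2 only sites (red), shared replicate 2 peaks (blue) and replicate 1 only peaks (grey). In the first 200 bp downstream the shared peaks reach 3.62%, the replicate 2 only sites 0.238% and the replicate 1 only peaks 0.161%.

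The promoters that replicate 2 only summits did fall in were less CpG-rich than those of shared peaks. The 248 promoter windows with such a summit had a median GC content of 57.0% and 12 CpG, against 66.0% and 26 CpG in 3449 windows with a shared summit. The values over all 21020 windows were 56.7% and 13 CpG. The SP/KLF word GGGCGGGG was found in 24.2% (19 to 30) of replicate 2 only windows, 41.1% of shared windows and 23.8% of all. The ETS word CCGGAAG was found in 9.68% (6.30 to 14.1), 17.9% and 11.7% of them, and the E-box CACGTG in 8.06%, 11.0% and 7.91%. The AP-1 word TGANTCA occurred in 6.05%, 3.48% and 7.04%, the CRE word TGACGTCA in 3.63%, 2.93% and 2.26%, and CCAAT in 38.7%, 33.1% and 38.5%. The forkhead word TGTTTAC, the core bound by Foxp3 and its relatives, was in 6 of 248 replicate 2 only windows, or 2.42% (0.893 to 5.19), against 1.68% of shared windows and 3.03% of all. In 3 of those 6 the word lay under the peak. All words were searched on both strands, words of different kinds may overlap, and windows of 1 gene can overlap too. For each of the 7 words, the interval of the replicate 2 only windows held the share over all windows.

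The strongest replicate 2 only sites lay mostly far from gene ends. The highest fold, 18.7 with a pileup of 94, was at chr6:67502057-67502415 (mm10), 10285 bp from Il23r, which encodes the receptor of the cytokine IL-23. Its nearest replicate 1 peak was 5599 bp away. A fold of 18.4, also with 94 fragments, was found inside Lsamp, a neuronal cell adhesion gene, 630324 bp from its nearer end. At chr3:58271572-58271884 a site of fold 17.9 lay 143009 bp from Tsc22d2 and only 845 bp from a replicate 1 peak, which had a fold of 2.91. Sites inside Htr1f, a serotonin receptor gene, and Immp2l, a mitochondrial peptidase gene, had folds of 14.3 and 13.4.

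Another 3 sites among the 10 strongest were distant from genes, with folds of 12.6 (nearest Tbc1d32), 11.6 (nearest Setbp1) and 11.4 (nearest 4932411N23Rik). The last lay 16580 bp from replicate 1. Of the 10, 9 had pileups of 94 or less over a background term between 5.09 and 5.17, at or near its lowest value. The exception was at Rmrp.

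The site at chr4:43492806-43493054 covered Rmrp, the RNA component of the RNase MRP ribonuclease, which processes ribosomal RNA. It had 232 fragments and a fold of 18.2 over a raised background term of 12.8. A replicate 1 peak of fold 8.67 began 261 bp away, so replicate 1 had signal beside Rmrp but no called peak over this stretch. The site at chr7:103826615-103826798 had a fold of 10.5 and lay inside Hbb-bs, a beta globin gene of red cells, 169 bp from its end. It was 184 bp long and 492 bp from a replicate 1 peak of fold 7.41, and a near-identical globin copy makes its placement uncertain.

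The highest pileups were another group, with low folds. The site with most fragments, 5482, was at 19415744 to 19415968 on chromosome 14, with a fold of 2.52 over a background term of 2173. Next came 1303 and 920 fragments near the start of chromosome 9, with folds of 2.11 and 1.66. All duplicates were kept in the calling, and what part they had in these pileups was not tested.

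The longest replicate 2 only site, 1009 bp with a fold of 7.46, lay at Slc30a4, a zinc transporter gene, and was 4205 bp from replicate 1. Next came a site of 936 bp inside Urb1 (fold 4.67) and one of 883 bp over the lncRNA gene Gm46328 (4.32). The nearest protein-coding gene to the latter was Egln3, 201681 bp away. Sites of 871 bp inside Zfp993 (4.21) and 823 bp inside Nr2f2 (4.92), a nuclear receptor gene, followed.

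At genes, a replicate 2 only summit within 1 kb of an end was found for 2013 of 21631 protein-coding genes, or 9.31%. A shared peak was found there for 12129 genes, or 56.1%. Of the 2013 genes, 947 (47.0%) also had a shared peak at an end, and 1807 (89.8%) had some replicate 1 peak within 1 kb of an end. Over all 21631 protein-coding genes, 18625 had such a replicate 1 peak and 13.9% had none, so the 89.8% is near the share of all genes. For 1066 of the 2013 genes, all replicate 2 summits at an end were of replicate 2 only sites. Of these 1066 genes, 861 had a replicate 1 peak elsewhere in the window. Genes with 2 or more such sites numbered 94. Among the 3006 genes without any replicate 1 peak in the window, 6.85% had a replicate 2 only site, against 9.70% of the 18625 genes with one.

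The 15 strongest of the 206 genes without replicate 1 in the window had folds of 8.66 to 5.69. Steap4, a metalloreductase gene, led with 47 fragments and a fold of 8.66, at 41 bp from its start, and its nearest replicate 1 peak, 1207 bp away, had 10 fragments. Hnf4a, a nuclear receptor gene of liver, kidney and gut, had 2 such sites, the stronger with 35 fragments and a fold of 7.04. Taf9b, which encodes a TFIID-related factor, had 40 fragments and a fold of 7.23, and Psmd5, a proteasome assembly chaperone gene, had 39 and 6.45. Both of these had replicate 1 peaks outside the window. That of Taf9b, at 1133 bp, had 44 fragments and a fold of 11.9, and that of Psmd5, at 3181 bp, had 39 and 10.6. Each fold uses the background term of its own library, so folds are not ranked between libraries.

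Others of the 15 include genes known from other tissues. Lce3d, of the skin's cornified envelope, and Ms4a13 each had 36 fragments and a fold of 7.26, with replicate 1 more than 8 kb away at 8550 and 8584 bp. Gria1, an AMPA receptor subunit of neurons, had 34 fragments and a fold of 6.87. Rbbp8, which encodes the DNA end-resection factor CtIP, had 30 fragments and 6.09, and Osgepl1, a mitochondrial tRNA modification gene, had 29 and 5.89. Folds were 8.44 at Gm46240, 6.68 at Gm32584, 6.43 at Pnmal1, 6.28 at 9130409I23Rik, 5.71 at Gal3st2 and 5.69 at Gm14139. Olfactory and vomeronasal receptor genes made up 20 of the 206 (9.71%, 6.03 to 14.6), against 906 of all 3006 genes without replicate 1 in the window (30.1%) and 6.76% of all protein-coding genes.

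At Rubcn, the window from 5 kb before to 5 kb after the gene held 4 replicate 2 only sites, 2 shared replicate 2 peaks and 19 replicate 1 peaks. The replicate 2 only folds were 3.96, 5.31, 4.52 and 5.50, with 25, 27, 22 and 27 fragments. The first 3 lay inside the gene, 1225, 1537 and 317 bp from replicate 1. The last, at chr16:32878139-32878369, was 500 bp outside the end of Rubcn, inside the neighbouring gene Fyttd1. It was 258 bp from a replicate 1 peak of 150 fragments and fold 21.9 over the Rubcn end, which also overlapped a shared replicate 2 peak of fold 5.50. At Foxp3 itself, replicate 2 had no peak of either kind within 5 kb, whereas replicate 1 had 9.

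In 14 gene lists, the share of genes with a replicate 2 only site lay between 0 and 25%, and every list's interval held the 9.31% of all genes. Taken once each, 44 of 385 list genes (11.4%, 8.43 to 15) had one. Forkhead genes had a site in 4 of 36 (11.1%), with Foxs1 (fold 4.44, 33 fragments) and Foxo3 (4.37, 24) highest, while 86.1% had a shared peak. Lysosomal genes had one in 4 of 34 (11.8%), led by the protease gene Ctsh (4.32) and the prosaposin gene Psap (3.83). LC3-associated phagocytosis genes had one in 4 of 24 (16.7%), among them Rubcn (5.50) and Gabarapl1 (4.91), a gene of the LC3 family. Autophagy initiation and cargo genes had one in 1 of 19, the receptor gene Tax1bp1 (4.52).

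In lists of macrophage functions the shares lay on both sides of 9.31%. None of 28 macrophage identity genes had a replicate 2 only site (0%; 0 to 12.3), while 46.4% had a shared peak. Phagocytic receptor and engulfment genes had one in 3 of 32 (9.38%), with the scavenger receptor gene Stab1 (fold 4.23, 40 fragments) and the adaptor gene Tyrobp (3.82, 26) highest. Inflammatory genes had one in 1 of 35 (2.86%), Nfkb2 (3.64), a subunit gene of NF-kappaB. Alternative activation genes had one in 4 of 27 (14.8%), led by the TGF-beta receptor gene Tgfbr1 (6.05, 45 fragments) and the nuclear receptor gene Pparg (5.89, 29). Both of these also had a shared peak, and replicate 1 was 177 and 169 bp away. Interferon response genes had one in 3 of 24 (12.5%), including the antiviral enzyme gene Oas3 (3.67) and the DNA-sensing adaptor gene Sting1 (3.14).

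Lists of other cell types had shares of the same order. Genes tied to Foxp3 in regulatory T cells had a replicate 2 only site in 4 of 28 (14.3%). None of these 4 had a shared peak, which 35.7% of the list had. Over all genes with a replicate 2 only site, 47.0% had a shared peak. Of the 4, the co-stimulatory receptor gene Tnfrsf9 was highest, with 21 fragments, a fold of 4.32 and no replicate 1 peak in the window. The inhibitory receptor gene Tigit followed, with 15 and 3.14. T cell genes had one in 4 of 20, with the adaptor gene Skap1 (5.58) and the adhesion gene Cd2 (4.58) highest. The replicate 2 only site at Skap1 was 18 bp from a replicate 1 peak. B cell and neutrophil genes had one in 5 of 20, led by the complement receptor gene Cr2 (6.48) and the B cell receptor gene Cd79b (4.94). Markers of other tissues had one in 6 of 34 (17.6%), including the kidney gene Nphs1 (5.71) and the astrocyte gene Gfap (4.89), and housekeeping genes in 1 of 30, Pgk1 (3.48).

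**Figure D5:**
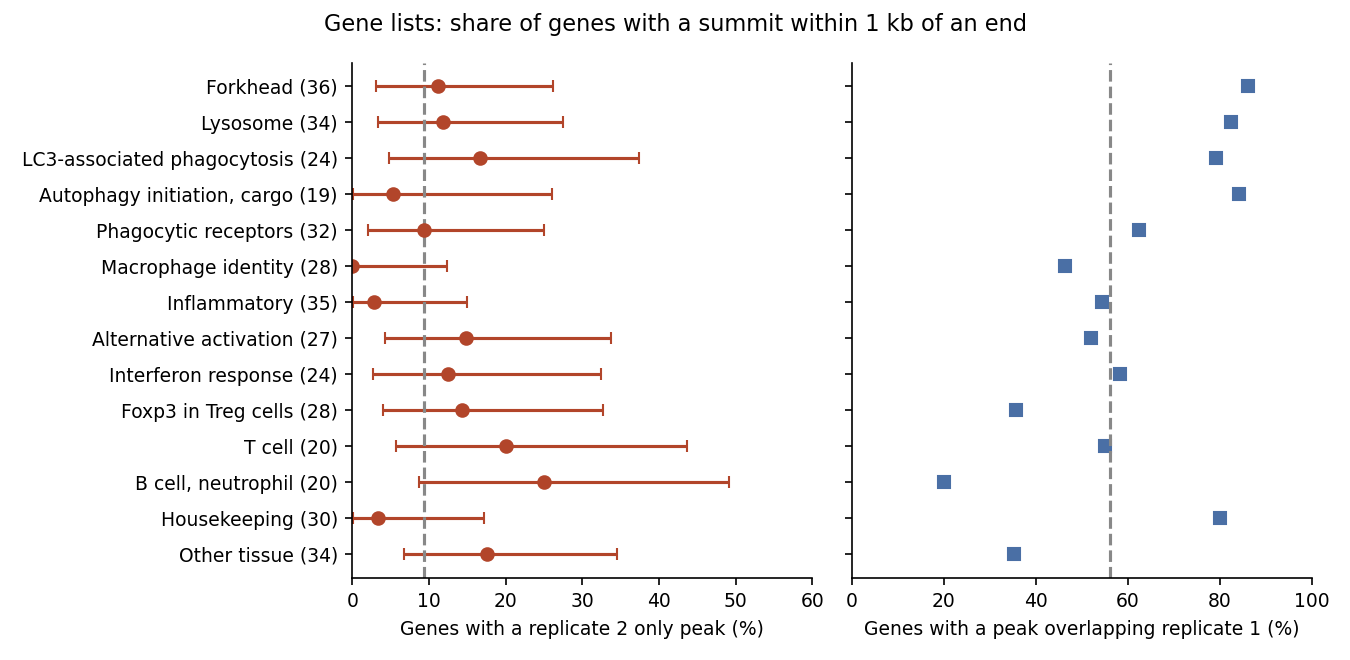
Share of genes (%) in each of 14 lists with a replicate 2 only summit (left, red, 95% exact binomial intervals) or a shared summit (right, blue) within 1 kb of a gene end; numbers in brackets are list sizes and dashed lines the shares of all protein-coding genes. All red intervals cross the 9.31% line, while the blue points spread between 20% and 86.1%.

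Gene families differed where whole clusters were poor in peaks of any kind. Olfactory receptor genes had a replicate 2 only site in 23 of 1110 (2.07%, 1.32 to 3.09) and a shared peak in 2.43%. Vomeronasal receptor genes had one in 11 of 353 (3.12%, 1.57 to 5.51), against 1.70% with a shared peak. In both families the shares of both kinds of peak were low, against 9.31% and 56.1% of all genes. The vomeronasal shares rest on 11 and 6 genes. For the other 8 families the interval held 9.31%. These were Zfp zinc finger (40 of 397, 10.1%), ribosomal protein (6 of 80), mitochondrial ribosomal protein (10 of 78), histone (6 of 102), proteasome (3 of 51), Hox (5 of 39), clustered protocadherin (5 of 55) and keratin genes (8 of 53). Receptor, histone and zinc finger genes have near-identical copies, and peaks there may be misplaced.

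Inside genes, replicate 2 only summits averaged 2.00 per 100 kb of gene. The most were in Camta1, with 42 (5.24 per 100 kb) beside 33 shared, followed by Cdh13 with 41 beside 15, Sdk1 with 37 beside 34, Wwox with 34 beside 27 and Csmd2 with 28 beside 21. All 5 are long genes, of 581 to 1185 kb, and Cdh13, Sdk1 and Csmd2 encode adhesion or neuronal surface proteins.

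Among genes that make no protein, the replicate 2 only share was set beside the 46.3% of all replicate 2 peaks. Here a peak counted when any of its bases overlapped the gene, so the longer shared peaks had more bases with which to count. Replicate 2 only sites made up 34.7% of the bases of all replicate 2 peaks. What part length had in the shares below was not tested. The interval of the replicate 2 only share lay wholly below 46.3% for microRNA genes, rRNA genes and pseudogenes, and held it for the other kinds. Of the replicate 2 peaks over microRNA genes, 11 were replicate 2 only and 85 shared, a replicate 2 only share of 11.5% (5.86 to 19.6) against 46.3% of all replicate 2 peaks. The strongest of the 11 were at Mir187 (fold 7.26) and Mir7082 (5.17). No replicate 2 only site and 10 shared peaks lay over rRNA genes (0 to 30.8%). The counts were 5 beside 13 over tRNA genes (9.69 to 53.5%) and 5 beside 12 over snRNA genes (10.3 to 56.0%). Over lncRNA genes the share was 46.0% (4567 beside 5352), over pseudogenes 38.3% and over snoRNA genes 39.5% (15 beside 23). Over V segments of antigen receptor genes it was 60% (15 beside 10; 38.7 to 78.9), in arrays of similar copies where placement is uncertain.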

How the data were processed

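Foxp3 CUT&RUN peak lists of 2 BMDM libraries were used. Per the submitters' processing notes, CASAVA 1.4 and build mm10 were used; for the aligner, none was given in the sources used here. The authors called peaks with MACS 2.1.1.20160309 on each library, per the file headers, paired-end, at a q-value cutoff of 0.01, with no control and all duplicates kept, so sites that release DNA with any antibody can be listed. The deposited pileup is a signal, the fragments over the summit as counted, with no depth scaling. Fold enrichment was deposited as a ratio of pileup to a background term from the same library, so folds of the 2 libraries are not directly comparable. The deposited significance is −log10 of p and q. The deposited length is in bp and another kind of value.

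Positions are 1-based. A replicate 2 only site overlapped no replicate 1 peak by 1 bp. Gene ends were those of 21631 protein-coding genes of RefSeq GRCm38.p6 on chromosomes 1 to 19 and X, whose coordinates are those of mm10, and a summit within 1000 bp was at an end. A gene had replicate 1 in its window when a replicate 1 peak overlapped the 1000 bp around either end. Starts and promoter sequences were RefSeq's, where listed. All 391 entries of the 14 gene lists matched by symbol or synonym. The lists and the sites were chosen with earlier results of these data known. Genes named are Rubcn and Foxp3, the 10 sites of highest fold, the 15 strongest genes without replicate 1, the 5 genes with most sites inside, the 5 longest sites and the 2 highest genes of each list; others were chosen after their values were seen. Overlap and distance code was tested on simulated intervals. Python 3.11.15, numpy 2.4.6, pandas 2.3.3 and SciPy 1.17.1 were used.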

Additional observations from a re-analysis of the deposited data

Results flagged for a closer look

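Outside chromosomes 1 to 19 and X, which the report did not use, 80 of 316 replicate 2 peaks (25.3%) overlapped no replicate 1 peak, against 46.3% on the chromosomes used. They are listed because they lie outside the main measurement, and the count is not set against any expected value. Of the 80, 1 was among 9 replicate 2 peaks on the mitochondrial genome, 5 among 32 on the Y chromosome and 74 among 275 on unplaced or other sequences.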

How the results depend on the processing

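The 43915 sites became 21553 with no replicate 1 peak within 1000 bp, 69175 against only the strongest replicate 1 peaks in equal number, 21602 at a −log10 q of at least 5 and, chosen after seeing the data, 3644 at a fold of at least 5. Their share at gene ends (4.45%) became 3.98% with none within 200 bp, 2.77% within 1000 bp, 6.58% with summits outside replicate 1 peaks, 9.0% with under 50% overlap of both lengths, 7.61% against the strongest peaks, 5.37% by −log10 q and 6.45% by fold. It became 2.43% at 500 bp, 16.1% at 5000 bp and 9.26% over all annotated genes. In these 10 settings the share of the remaining replicate 2 peaks was between 18.8% and 41.0%, above that of the sites each time. The median fold of 3.73 became 3.77 with under 50% overlap, 3.76 against the strongest peaks, 4.32 by −log10 q and 5.50 by fold. The 2013 genes became 619 with none within 1000 bp, 3718 by summit, 5489 with under 50% overlap, 5086 against the strongest peaks, 1240 by −log10 q and 252 by fold. They became 1110 at 500 bp, 6997 at 5000 bp and 4260 over all annotated genes. Other causes of these moves were not tested. Without pileups of at least 1000, 43913 sites were left and the other values kept their printed digits. No paired analysis was possible because the choice of sites needs both libraries, so neither could be left out. A site just under the threshold in replicate 1 cannot be told from an absent one at this depth.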
